A study of Arabidopsis thaliana with 7 samples.

Results

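The 356 sites described here are the 10% of 3557 HY5-YFP binding sites, shared by all libraries, whose signal leaned most to blue light. HY5 is a bZIP transcription factor that acts downstream of the phytochromes and cryptochromes and promotes the development of seedlings in light. It binds DNA elements with an ACGT core, and in darkness it is marked for degradation by the E3 ligase COP1 with its SPA partners. Its known targets include genes of pigment synthesis, light protection and the circadian clock. Binding was mapped by ChIP-seq, in which fixed chromatin fragments are pulled down with the protein and sequenced, and a peak is a place where such fragments pile up.

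All plants, blue, red and mock alike, were Arabidopsis thaliana of the Wassilevskija (Ws) accession, carried the hy5-ks50 T-DNA insertion in HY5 and expressed a HY5-YFP fusion, so every value is that of the fusion protein. The promoter of the fusion gene and the number of transgenic lines are not given in the labels. Entrained under cycles of 12 hours of light and 12 hours of darkness, the plants were kept for 52 hours under either colour, blue or red, at a fluence rate of 15 µmol m-2 s-1, and whole plants were fixed at an age of 10 days. There were 3 biological replicates in each light and 1 mock, a pull-down with beads lacking the antibody from mixed blue light chromatin. In whole plants, fewer cells with bound HY5-YFP and less HY5-YFP bound per cell cannot be told apart.

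The 6 peak lists were joined into 10233 sites, of which 3557 held a peak in every list. A peak's signal is its tag number (a tag is a mapped read) per 10 M tags of the library. Library totals ran from 7.99 to 11.9 M tags. In red light replicate 1 the peak window was 549 bp wide, against 306 to 348 bp in the other libraries, and it held the most tags of the red libraries at all 356 sites. The fragment length given for that library was 548 bp, against 188 to 226 bp for the others. Each library's log2(tags + 1) was centred on its own median over the shared sites, and the lean of a site is the mean of the 3 centred blue values minus the mean of the 3 centred red values. These values chose the 356 sites, and they are given below as a description without a test. Centring subtracts 1 constant per library, so it does not alter the order of the sites, and a lean above 0 is more blue light signal relative to the typical shared site.

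**Figure D1:**
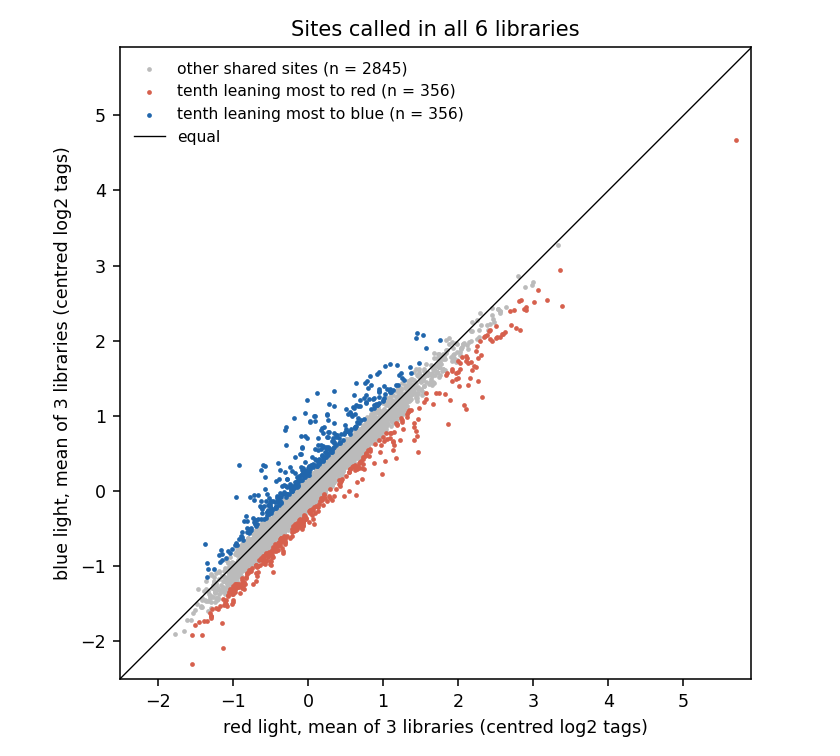
Centred log2 tags of the 3557 shared sites, with the mean of the 3 red libraries on the horizontal and of the 3 blue libraries on the vertical axis; each point is a site and the line marks equal values. The 356 sites leaning most to blue light (blue) all lie above the line, and none is among the sites of very high signal at the upper right, where the site at HY5 itself lies toward red light.

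The lean of the 356 sites ran from 0.20 to 1.26 with a median of 0.30, against a median of -0.04 over all shared sites. It was at least 0.5 at 70 of them and at least 1 at 7. Before centring, blue light tags were 1.59 to 3.44 times the red light ones, with a median ratio of 1.75 against 1.38 over all shared sites. The red means in these ratios include replicate 1 with its wider window. Its median over all shared sites was 319 tags, against 220 in red light replicates 2 and 3. Against replicates 2 and 3 alone, the ratios at the 356 sites would be higher. The limit falls in a dense part of the range. The last 5 sites inside, nearest to AT5G54990, AT3G11000, RAB1A, AT5G21105 and AT4G27560, had leans of 0.1998 to 0.1981, and the first 5 outside, nearest to AT1G12450, SAM-2, SEP2, AT3G60520 and AT1G50020, had 0.1980 to 0.1951.

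The highest lean belonged to a site between AT4G26190 and ACS7, which encodes an enzyme of ethylene synthesis, at positions 13268561 to 13269109 of chromosome 4 (coordinates are TAIR10 throughout). It held 424, 462 and 480.5 tags in blue light replicates 1 to 3 and 156, 107 and 135 in red light replicates 1 to 3, a lean of 1.26 (SE 0.12, from the spread of 3 and 3 libraries). The lowest blue value lay above the highest red one, as before centring at 59.4% of all shared sites. The site was ranked first by this same difference, so nothing is read from the gap. The site ranked next lies inside AT4G36530, beside BEE2, a bHLH factor of the brassinosteroid response, at positions 17241624 to 17242172 of chromosome 4. Its tags were 827, 888 and 792 in blue and 349, 195 and 217 in red light (lean 1.24, SE 0.11).

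ELIP2, which encodes an early light-induced protein of the thylakoid that protects against excess light, had the third site of the order, between APS3 and ELIP2 at positions 8417446 to 8417994 of chromosome 4. Blue light gave 906, 883 and 868 tags and red light 377, 244 and 215, for a lean of 1.18 (SE 0.08). The wide-window library is the highest of the red ones here and at each of the other 19 sites leaning most. A site between PUP15 and AT1G75490 followed with 692, 693 and 733 tags under blue and 304, 193 and 178 under red light (lean 1.16). PyrD, which encodes a deaminase of riboflavin synthesis, had 618, 622 and 709 tags under blue and 269.8, 184 and 167 under red light (lean 1.15). At SNC1, a gene for an immune receptor, the blue values were 609.5, 628 and 656 and the red ones 247, 171 and 191 (lean 1.12). FAF2, whose family acts in the shoot meristem, closed the group above 1 with 727, 714 and 768 tags under blue and 338, 200.2 and 209 under red light (lean 1.07).

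Values of 4 of the 13 sites that followed are given first, picked after their names were seen. Between NPH4, an auxin response factor needed for phototropism, and AT5G20740 the blue libraries held 955, 832 and 933 and the red ones 376, 282 and 299 tags (lean 0.99). Beside CYP707A2, which encodes an enzyme that breaks down abscisic acid, the tags were 433, 450.0 and 480.5 and 215, 143 and 141 (lean 0.94). A site between SHY2 and AXR3, both repressors of auxin response of the Aux/IAA family, had 542, 569.6 and 532 tags under blue and 258, 222 and 147 under red light (lean 0.90, SE 0.17), and its red values were spread more widely than those of its neighbours in the order. A site inside TCH2, a calmodulin-like gene beside CAM1, and nearest to the end of AT5G37760, had 407, 442 and 463 and 205, 144 and 142 (lean 0.90).

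The remaining sites of the 20 leaning most were nearest to AT5G37550, AT5G50100, HB40 (a homeodomain factor), AT1G44000, AT1G62030 beside the autophagy gene ATG8C, BAG1 (a co-chaperone), SVL2, PHT3;3 (a mitochondrial phosphate carrier) and AT2G42290 beside FBH4, a bHLH activator of the flowering gene CONSTANS. Over all 20, blue light means ran from 341 to 907 tags and red light means from 132 to 319, and the lowest lean was 0.82. Of the 20 sites 14 lay between genes and 6 inside one. A site between genes cannot be given to either neighbour from its position alone.

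**Figure D2:**
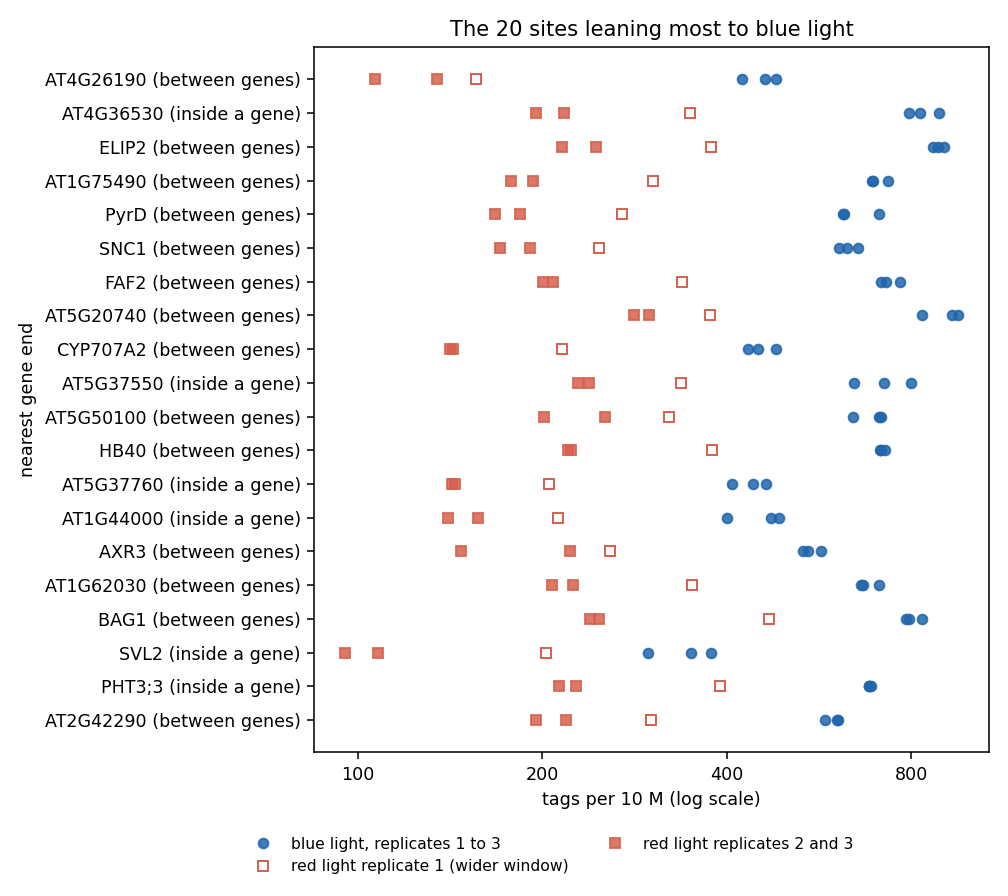
Tags per 10 M (log axis) of the 20 sites leaning most to blue light, named by the nearest gene end; circles are the 3 blue libraries, open squares red light replicate 1 and filled squares red light replicates 2 and 3. At all 20 sites the 3 blue values lie above the 3 red ones, as at all 356 sites and at 59.4% of all shared sites. Red light replicate 1 is the highest of the red values, as at all 356 sites.

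The sites that lean most are not the tallest. The highest site among the 356 by its mean over 6 libraries, between PKS1, which encodes a phytochrome kinase substrate, and MEE12, had a lean of 0.25, with 1338, 1437 and 1584 tags under blue and 974, 796 and 784 under red light. ELIP1, the close relative of ELIP2, came next with 1564, 1566 and 1513 and 1053, 543 and 559 tags (lean 0.65, SE 0.14). The others of the 10 highest lay nearest to IGMT3 (an indole glucosinolate methyltransferase, beside its copy IGMT2), AT5G15910, SPPA (a thylakoid protease), AT3G04040, AT2G21960, AT4G09750, FAO3 and AT5G16010, with blue light means from 1070.0 tags (FAO3) to 1512 (IGMT3). The site inside AT2G21960 lies next to SEP2, a light stress protein related to the antenna proteins, and the site on the other side of it was the third outside the limit. When all shared sites were sorted by mean tags into 10 groups of like size, the lowest groups held 14 and 15 of the 356, the eighth group 61 and the highest 34.

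By medians, the 356 sites differed from the other shared sites in the blue light libraries. The median of the 356 sites was 462, 462 and 467 tags for blue light and 321, 218 and 219.6 for red light replicates 1 to 3. The other 3201 shared sites had medians of 350.1, 339 and 350.3 for the blue libraries and 319, 221 and 219.6 for the red ones. The lean was the basis of the choice, so these medians describe it and are no test of it. Every shared site also needed a peak in each red list, which limits how low its red values can be. The 1521 sites with peaks in every blue list but without any in the red lists had a median blue light mean of 157 tags, below the 456 of the sites described here. Sites that kept no red peak have no red value and cannot enter the choice, whatever their lean.

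**Figure D3:**
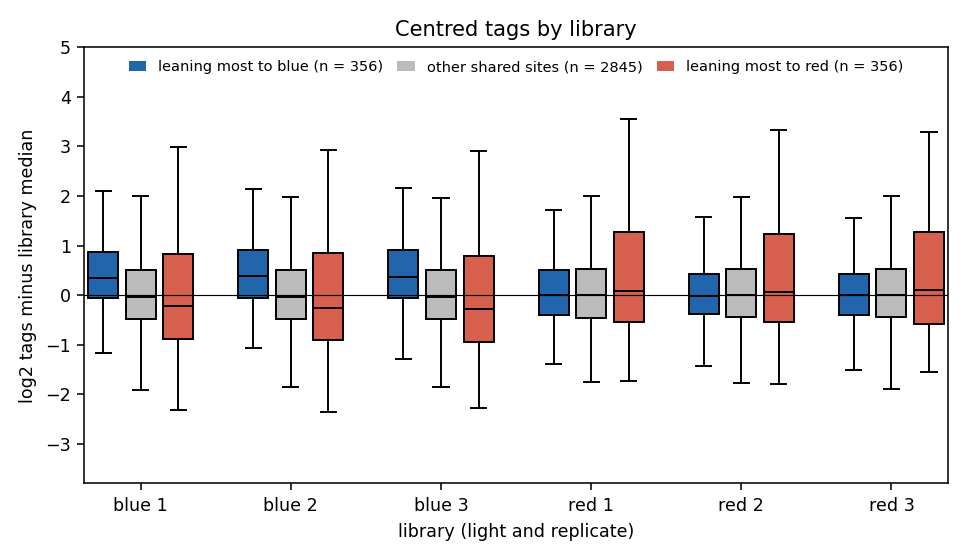
Log2 tags minus the library median for the 356 sites leaning most to blue light, the 356 leaning most to red light and the 2845 shared sites in neither group, by library; boxes span the quartiles, the line is the median and whiskers reach 1.5 times the box. The blue boxes stand above the grey ones in the 3 blue libraries and level with them in the 3 red ones.

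All 3 blue libraries lay above all 3 red ones at 314 of the 356 sites after centring and at 356 before it. Over all shared sites this held at 13.1% after centring and at 59.4% before it, and since the sites were chosen by this difference nothing is read from these shares. At the other 42 sites the highest red value was that of replicate 1 in 20 cases and that of replicates 2 and 3 in 10 and 12. The lowest blue value there was that of blue light replicate 1 in 20 cases and that of replicates 2 and 3 in 9 and 13. The median SD between the 3 libraries of a light was 0.08 (log2) in blue and 0.11 in red light, against 0.08 and 0.10 at the other shared sites.

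The lean was also read in libraries whose tags had no part in ranking the sites. These libraries did help set the pool, since every shared site needed a peak in each of their lists. That need limits how low their red values can be, so the values are not a fully independent reading of the lean. When replicate 1 of both lights was left out and 356 sites were chosen anew from the other 4 libraries, 296 of the new choice were among the sites described here. The median lean of the 356 newly chosen sites in the pair left out was 0.25, against -0.03 over all shared sites, and 327 of them lay above that overall median. With replicate 2 left out, 285 sites were shared, the median was 0.27 and 315 sites lay above the overall median. Replicate 3 gave 292 sites, a median of 0.27 and 323 sites. In the 4 libraries used for each choice the medians were 0.32, 0.31 and 0.32. Of the newly chosen sites, 170, 179 and 190 were in the highest 10% of the pair left out as well. The pairs left out share with the others the light, the peak caller and the mock.

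Genes for repair, assembly and lumenal subunits of photosystem II were met often among the 356 sites. After this was seen in the names, a list of 28 textbook genes of these kinds was drawn up, so its counts are a description. Its scope was set with the names known. Left out are photosystem II genes of the lists below, such as PSBS (lean 0.09), LHCB4.1 (-0.01) and LHCB1.3 (0.32), the last alone among the 356. Of its genes 16 had a shared site within 1500 bp, and 11 of these, or 68.8%, had a site among the 356. Over all protein-coding genes with a shared site the share was 9.54%. The median lean of the 17 shared sites of the list was 0.24.

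The FtsH proteases of the thylakoid, which take damaged reaction centre protein apart, were represented by all 4 listed genes. FTSH1 had 503, 499 and 514 tags under blue and 288, 204 and 214 under red light (lean 0.59, SE 0.03), and VAR1, also called FTSH5, had 561, 621 and 676 and 391, 256 and 268 (lean 0.51, SE 0.08). FTSH8 and VAR2 (FTSH2) stood lower in the order, with leans of 0.25 and 0.24. VAR2 held 446, 454 and 384 tags under blue and 307, 225 and 226 under red light. The blue libraries lay above the red ones at each of the 4 sites. Before centring this held at all 356 sites and at 59.4% of all shared sites.

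HCF173 and HCF244, factors needed for synthesis of the reaction centre protein, had leans of 0.54 and 0.24. The HCF173 site, between HAC12 and HCF173, held 414, 400.5 and 384 tags under blue and 265, 169.9 and 151 under red light, while a further shared site near the gene, beside AT1G16740, had a lean of -0.07. Among assembly factors, PSB27 had 747, 666 and 794 and 494, 334 and 346 tags (lean 0.40) and PSB29 had 309.9, 341 and 332 and 203, 155 and 183 (lean 0.34). Of the subunits, PSBO2 of the oxygen-evolving complex had 535, 535 and 528 and 359, 262 and 273 (lean 0.32), and PSBR and PSBQ-2 had leans of 0.26 and 0.24. HCF136 (0.19) and PSBW (0.13) fell outside the limit on the blue side, and PSBQA (-0.03), PSB28 (-0.13) and PSBTN (-0.21) had leans below 0. The other 12 genes of the list had no shared site.

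Lists of light, pigment, clock and cold genes, 187 genes in 11 lists, were drawn up with earlier results of these data known. Of the 90 listed genes with a shared site 16 had a site among the 356, where the share over all protein-coding genes with a shared site was 9.54%. Since the lean chose the sites, the counts of single lists, several of them near that share or of few genes, are a description. Light protection and repair had 3 of 7 genes: ELIP2, ELIP1 and CRY3, a cryptochrome of the DASH type that repairs DNA in organelles, with 880.0, 980.0 and 913 tags under blue and 618, 454 and 492 under red light (lean 0.31). The photolyase genes PHR1 (-0.18) and UVR3 (-0.32) had leans below 0. Their blue light means before centring were still 1.26 and 1.13 times the red ones, which include the wide-window library. The median lean of this list was 0.09.

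Flavonoid and anthocyanin genes had 4 of 13 with a site among the 356. UGT78D2, which glycosylates flavonols and anthocyanins, had 450.2, 422 and 429 tags under blue and 258, 169 and 161 under red light (lean 0.65, SE 0.05), and 4CL3, a coumarate-CoA ligase, had 725, 732 and 743 and 493, 306 and 315 (lean 0.49). The site of DFR, the reductase at the branch to anthocyanins, lies inside its neighbour IPK1 (lean 0.32), and MYB90, an activator of anthocyanin genes, had a lean of 0.25. CHS, the entry enzyme, had 0.13. Leans below 0 were found at F3H (-0.17), FLS1 (-0.20), F3'H (-0.30) and MYB12, an activator of flavonol genes (-0.27 and -0.44 at its sites). MYB11 (-0.02) and UF3GT (-0.01) lay just below 0. Before centring, blue light means were still 1.25 (F3H), 1.24 (FLS1), 1.13 (F3'H), and 1.17 and 1.06 (MYB12) times the red ones. Those red means include the wide-window library. The median of the 14 sites was 0.06.

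Of 15 regulators of photomorphogenesis with a shared site 4 were represented: SPA4, COP1, HFR1 and FHY1. SPA4 held 502, 553 and 568 tags under blue and 312, 203 and 207 under red light (lean 0.67, SE 0.06), and COP1, its partner in the ligase, 555, 608 and 609 and 376, 250.4 and 284 (lean 0.45, SE 0.08). HFR1, a bHLH factor that the same ligase marks for degradation, had 619.7, 702 and 592 and 505, 304 and 284 at a site between it and AT1G02350 (lean 0.32). The site of FHY1, which carries phytochrome A into the nucleus, lies inside the neighbour AT2G37670 (lean 0.27). SPA3 (0.18) and BBX24 (0.19) were just outside the limit, SPA1 had -0.31, and the site of HY5 itself had -1.03, the last but one of all 3557. Tags of the native and the fusion gene cannot be told apart there. The mock was also high at this site, with a mean of 695 tags against a median of 22.8 over all shared sites.

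GUN5, which encodes the H subunit of magnesium chelatase in chlorophyll synthesis, was the only one of 9 genes of chlorophyll, haem and carotenoid synthesis among the 356. It held 763, 685 and 734 tags under blue and 417, 257 and 244 under red light (lean 0.76, SE 0.08). HEMA1 (0.15) and CAO (0.11) came closest, and FC1, a ferrochelatase of haem synthesis, had -0.64. Single genes stood for the antenna list (LHCB1.3, 1 of 3, at a site between the near-identical copies CAB2 and CAB1, where tags of the copies are uncertain), the PIF list (PIF4, a bHLH factor of elongation growth, 1 of 9), and the cold list (KIN1, 1 of 2, at a site inside KIN2), with leans of 0.32, 0.27 and 0.29. At KIN1 the libraries of the lights overlapped after centring.

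ELF4, part of the evening complex, was the only one of 20 clock genes with a shared site among the 356. It held 611, 709 and 719.5 tags under blue and 533, 321 and 348 under red light (lean 0.27). The median of the clock sites was -0.11, and 6 of 20 lay above the median of all shared sites. None of the 4 photoreceptor genes, 3 sigma factor genes and 5 housekeeping genes with a shared site was among the 356. Aux/IAA genes, listed after SHY2 and AXR3 had been seen, had 2 of 6, IAA18 (lean 0.40) and IAA2 (0.28), with a median of -0.02 over the list. The site between SHY2 and AXR3 is not in this count, since its centre lies more than 1500 bp from both genes.

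**Figure D4:**
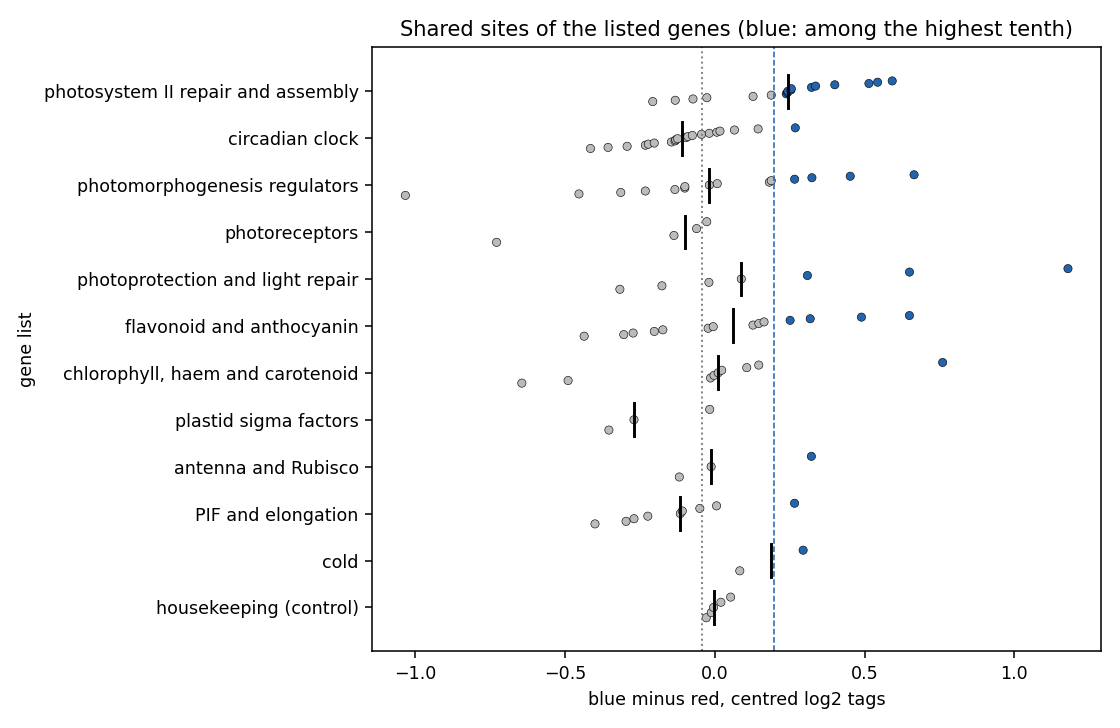
Lean (blue minus red, centred log2 tags) of the shared sites of the listed genes; each point is a site, filled blue if among the 356 sites, vertical bars are list medians, the dashed line is the limit of the choice and the dotted line the median of all shared sites. The photosystem II list was drawn up after the values were seen; 11 of its 17 sites lie at or beyond the limit, which 10% of all shared sites reach by construction.

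The sites leaning to blue light lay farther from gene ends than the other shared sites. By the gene table of assembly TAIR10.1, 64.9% of the 356 site centres lay within 500 bp of the nearest end of a protein-coding gene (Wilson 95% interval 59.8 to 69.7%), against 77.4% (76.0 to 78.9%) of the other 3201 and 72.8% (67.9 to 77.1%) of the 356 sites leaning most to red light. More than 1500 bp from any gene end lay 14.6% (11.3 to 18.7%), 6.34% (5.55 to 7.24%) and 7.87% (5.50 to 11.1%). The intervals cover counting error over sites, neighbouring sites and genes are not independent, and the difference was not tested. Among other shared sites of similar height, between the quartiles of the 356, the share within 500 bp was 77.0%. The table gives no strand, so gene starts and ends cannot be told apart.

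Most of this difference lay between genes: 30.6% of the 356 sites were between genes and over 500 bp from an end, against 16.4% of the other shared sites. Of the sites leaning most to red light, 18.8% lay there. The share inside a protein-coding gene was 39.3% of the 356 sites against 42.8% of the other shared sites. Among the 20 sites leaning most, 10 lay between genes and over 500 bp from an end. Shares by chromosome ran from 15.2% on chromosome 4 to 26.7% on chromosome 1, against 15.9% and 27.1%. Another site lay within 1500 bp of 8.15% of them, against 6.81%. The 356 sites had 355 different nearest genes, and AT3G23530 alone was nearest to more than 1.

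**Figure D5:**
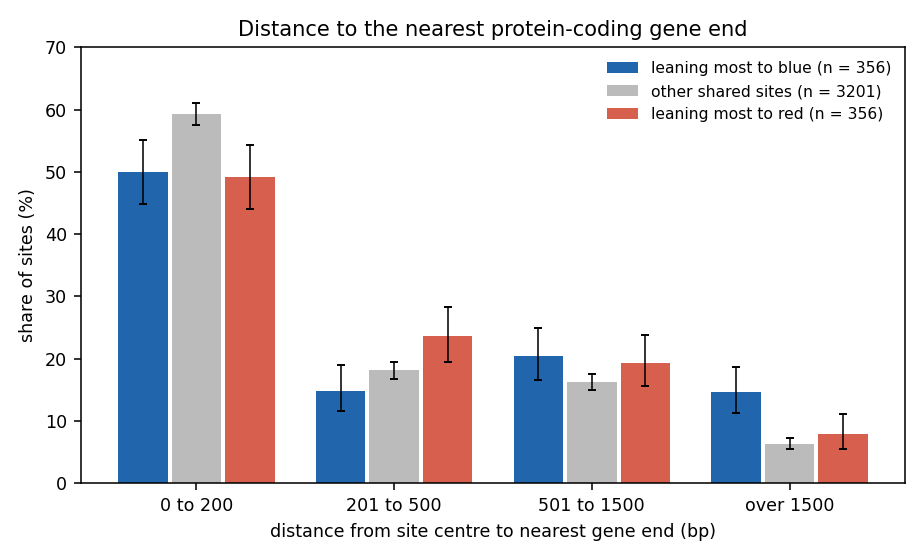
Share of sites by distance from the site's centre to the nearest end of a protein-coding gene, for the 356 sites leaning most to blue light, the other 3201 shared sites (which include those leaning to red light) and the 356 leaning most to red light; bars are percentages with Wilson 95% intervals. Over 1500 bp, the blue bar stands at 14.6% and the grey one at 6.34%.

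The mock held about the same tags at these sites as elsewhere. The median over sites of the mock tags, averaged over the windows of the 6 lists, was 24.0 at the 356 sites and 22.7 at the other shared sites, and over the others of similar height the sign of that gap turned (the 356 sites lay 1.17 tags lower). A peak needed 4-fold the tags of the mock in the authors' call. The lowest of the 3 red folds was under 5 at 23.0% of the 356 sites and at 21.2% of the others. The median of the authors' fold over the mock was 14.3, 14.2 and 14.7 in blue and 7.37, 7.40 and 7.38 in red light replicates 1 to 3. At the other shared sites it was 11.2, 10.8 and 11.2 in blue and 7.37, 7.76 and 7.70 in red light, so a gap between the lights was present there too. The fold rests on the same tags that ranked the sites and is not a separate measure of the lean. The only mock was from blue light chromatin.

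The focus ratio of a peak, the share of its tags on the side of the centre that their strand predicts, had medians of 0.877, 0.8805 and 0.876 for the blue and 0.8005, 0.8375 and 0.8405 for the red libraries at the 356 sites. The others had 0.846, 0.847 and 0.841 for the blue libraries and 0.787, 0.819 and 0.818 for the red ones. By limma with Benjamini-Hochberg adjustment over all shared sites it was higher in blue light at 18 of the 356, among them FAF2, SNC1, HCF173 and PSBO2, where 1.32% of all shared sites were called, and higher in red light at 0 (226 of the 356, and 1175 of all 3557, had an unadjusted p under 0.05 in either direction). It is made from the same tags as the lean, so it is no independent measure. The count was 0 when any 1 of the blue libraries was left out and with the replicate number as a block.

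The centres of the 6 libraries lay within 50 bp of their common mean at 97.8 to 98.9% of the 356 sites. Limma called a move between lights at 1 of them, nearest to AT3G26950, where the blue centres lay 94.3 bp from the red ones (SE 8.78 bp, limma adjusted p = 0.0219). Of all shared sites 0.0843% were called, 28 of the 356 (7.87%) had an unadjusted p under 0.05 against 7.03% of all shared sites, and the call was lost when any 1 library was left out and with the replicate block.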

How the data were processed

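Peaks were called by the authors with HOMER in each library against the mock, per the file headers (version 4.9 and build TAIR10 per the submitters' processing notes), with at least 4-fold the tags of the mock and of the surrounding 10000 bp. The deposited signal is the normalized tag count per 10 M tags, the deposited fraction is the focus ratio, and the deposited fold ratio compares a peak with the mock. An aligner is not named in the sources used here. Peaks sharing 1 bp were joined, and the highest peak of a library was used. Values were log2(tags + 1), centred per library. The 356 sites and the lists were chosen with earlier results of these data known, and 2 lists were added after values were seen. Named sites were the 20 leaning most, the 10 highest, 5 on each side of the limit and those of listed genes (a gene end within 1500 bp). Focus ratios and peak centres were fitted over all 3557 shared sites with limma 3.58.1 in R 4.3.3 and Benjamini-Hochberg adjustment at 0.05, after tests on simulated data that recovered only a minority of the changes made, so few calls are no sign of few changes. Gene names came from RefSeq, assembly TAIR10.1. Wilson intervals cover counting error only, and tags are not distinct molecules after 16 PCR cycles. Promoter motifs were not analysed here.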

Additional observations from a re-analysis of the deposited data

How the results depend on the processing

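Each alternative chose the sites anew by their lean, so a median above 0 is fixed by the choice and is no sign of stability. The median of 0.30 was 0.44 for the highest 5% of sites and 0.20 for the highest 20%, which follows from the size of the share taken. Leaving out 1 library in turn gave 0.30 to 0.32 and kept 297 to 317 of the 356 sites, 222 of them in all 6 rounds. Pseudocounts of 0 and 10 kept 355 and 347, tags per bp of window 352, a join on a larger overlap 353, and a minimum mean of 200 tags 290. With the replicate number as a block the lean was again 0.30 and the 356 sites were kept, since the design is balanced. Correlations of deviations between same-numbered libraries were -0.04, -0.09 and 0.05, and those of other pairs ran from -0.09 to 0.12. These values cannot show whether same-numbered libraries were prepared together.

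The mock median was 1.33 tags higher than at the other shared sites and 1.17 lower than at others of similar height (-1.17); the cause was not tested. The count of 18 sites with a higher focus ratio in blue light ranged from 0 to 68 when 1 library was left out (0 without each blue library and 65, 68 and 33 without red light replicates 1, 2 and 3). It was 0 with the replicate block, 30 among sites of at least 200 tags and 46 on the arcsine scale. The 1 moved centre ranged from 0 to 0 without 1 library and was 0 with the block. The share within 500 bp of a gene end, with alternatives added after seeing the data, was 65.4% for sites chosen without red light replicate 1. The promoter motif alternatives were not run.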

Other observations

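Outside the listed genes, several of the 356 sites lay at genes of the plastid and of development; these were picked after their values were seen. SOUL-1, a haem-binding protein gene, had a lean of 0.52, Lhca5, a minor antenna protein of photosystem I, 0.34, VTE1, the tocopherol cyclase, 0.32, and CLA1, the first enzyme of plastid isoprenoid synthesis, 0.25. MUTE, a bHLH factor of the stomatal lineage, held 1040.0, 1050.2 and 1071 tags under blue and 574, 406 and 449 under red light (lean 0.63), and HAT9, a homeodomain factor, had a lean of 0.69. The blue libraries all lay above the red ones at MUTE, which before centring held at all 356 sites and at 59.4% of all shared sites.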
